A study of Mus musculus with 4 samples.

Results

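Imprinted genes are transcribed mainly from the allele inherited from 1 parent. A list of 41 such genes was followed in whole mouse embryos that were wild type or Tc/Tc, at 2 stages. Members were the rows whose gene symbol equalled a listed symbol exactly, which gave 37 of the 41 genes among the 36808 in the deposited tables. By the parental allele known to be active in mouse, 20 listed genes are maternally expressed, 20 are paternally expressed, and 1, Gnas, makes transcripts of both kinds. Tc is an allele of T (Brachyury), the founding T-box factor, active in streak, tail bud and notochord, and Tc/Tc embryos carry it on both chromosomes. The 4 groups were wild type and Tc/Tc at E7.5 to 8.0 (E8 here) and wild type and Tc/Tc at E10.0 to 10.5 (E10 here), with 1 library of directional mRNA-seq each and a strain of origin given as (C3H/HeH x 101/H)F1 for all. The sources used here give neither the number of embryos in a library nor whether extraembryonic membranes were kept.

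Imprinting rests on DNA methylation that is laid down differently in egg and sperm at control regions and kept through early development. Most imprinted genes lie in clusters in which a single control region sets the activity of several neighbours, often through a long noncoding RNA. Many act on fetal and placental growth: paternally expressed Igf2 promotes it, and maternally expressed H19, Igf2r, Cdkn1c, Phlda2 and Grb10 restrain it. A level in FPKM (fragments counted per kilobase of a transcript, relative to all those mapped) sums both alleles, so it does not show which parental allele was read and is not a measure of imprinting itself.

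The promoters of the 4 members on which the genotype results turn are shown for reference, as RefSeq gives them on GRCm38.p6. Each runs from 250 bases before to 50 after the start, 5′ to 3′ on the strand of the gene, with every CG dinucleotide, the substrate of DNA methylation, in capitals. Phlda2 (chr7:143502475-143502774, minus strand) was the member with the largest genotype difference at E10, and Mest (chr6:30737800-30738099, plus strand), Ndn (chr7:62348027-62348326, plus strand) and Nnat (chr2:157559828-157560127, plus strand) were those lower in Tc/Tc at E8. For Mest, RefSeq lists 3 starts, and the one with the most CG dinucleotides is shown.
Phlda2 promoter: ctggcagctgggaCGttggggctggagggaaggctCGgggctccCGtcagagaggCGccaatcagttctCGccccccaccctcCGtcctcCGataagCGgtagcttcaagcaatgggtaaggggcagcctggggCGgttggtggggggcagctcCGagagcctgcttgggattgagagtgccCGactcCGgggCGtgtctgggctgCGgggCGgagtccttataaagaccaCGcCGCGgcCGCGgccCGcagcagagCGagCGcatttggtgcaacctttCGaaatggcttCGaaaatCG
Mest promoter: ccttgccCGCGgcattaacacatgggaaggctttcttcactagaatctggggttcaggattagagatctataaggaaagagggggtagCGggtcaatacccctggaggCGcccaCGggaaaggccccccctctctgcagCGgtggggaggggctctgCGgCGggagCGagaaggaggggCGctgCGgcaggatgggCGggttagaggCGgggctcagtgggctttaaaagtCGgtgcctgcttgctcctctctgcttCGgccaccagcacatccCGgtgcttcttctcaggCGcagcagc
Ndn promoter: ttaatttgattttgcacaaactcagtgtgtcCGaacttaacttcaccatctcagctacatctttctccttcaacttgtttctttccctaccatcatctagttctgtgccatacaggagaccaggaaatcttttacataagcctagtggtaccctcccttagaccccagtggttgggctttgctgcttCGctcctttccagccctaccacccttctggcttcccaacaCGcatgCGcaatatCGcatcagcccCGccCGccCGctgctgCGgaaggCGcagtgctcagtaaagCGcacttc
Nnat promoter: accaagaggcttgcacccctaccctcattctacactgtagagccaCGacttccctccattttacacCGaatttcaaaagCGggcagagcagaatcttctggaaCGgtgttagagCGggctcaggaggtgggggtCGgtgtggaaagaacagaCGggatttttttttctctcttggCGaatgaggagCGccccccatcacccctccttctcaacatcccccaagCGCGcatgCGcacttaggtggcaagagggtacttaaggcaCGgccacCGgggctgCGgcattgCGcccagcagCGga
The window of Phlda2 held 26 CG dinucleotides, those of Mest and Nnat 17 each and that of Ndn 11. For every gene, the listed start with the most CG dinucleotides was taken. Promoters were found for 33 of the 41 listed genes, with a median of 17 CG dinucleotides, against 8 over 27025 genes. The median was 22 over 16 maternally expressed and 12 over 16 paternally expressed genes. The letters TGCCGC, bound by the imprint-protecting factor ZFP57 when methylated, were found on either strand in 8 of the 33 windows (24.2%), those of Mest and Nnat among them, and in 12.2% of all windows. These letters hold a CG themselves, and the shares were not adjusted for CG content. The motif GGGGCCCC of the imprinted factor PLAGL1 was in 3 of the 33 windows (9.09%), of Peg3, Usp29 and Ppp1r9a, and in 1.11% of all. It holds only G and C, and these shares were not adjusted for base content either. Peg3 and Usp29 lie on opposite strands in 1 cluster, and whether their windows share a site was not checked. The half-site TCACACCT of T was in 0 of the 33 windows and in 1.30% of all.

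Members of this list are also hosts of microRNAs. H19 RNA contains miR-675, an intron of Igf2 contains miR-483 and an intron of Mest contains miR-335. Their mature sequences are shown from RefSeq (GRCm38.p6), with the seed, bases 2 to 8, in capitals. The 6 seeds differ from each other, and the microRNAs themselves were not measured in these libraries.
mmu-miR-675-5p: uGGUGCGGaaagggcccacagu
mmu-miR-675-3p: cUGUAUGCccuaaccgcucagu
mmu-miR-483-5p: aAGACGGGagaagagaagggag
mmu-miR-483-3p: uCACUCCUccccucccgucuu
mmu-miR-335-5p: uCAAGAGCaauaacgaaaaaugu
mmu-miR-335-3p: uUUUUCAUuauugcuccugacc

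The 4 libraries summed to between 598365 and 737448 FPKM, with 12900 to 13583 genes at 1 FPKM or more. Read depth is unknown. T was present in each library, from 7.18 FPKM in wild type E10 to 48.3 in Tc/Tc E8, which does not show the allele. With 1 library in each group there is no replicate spread and no test, and every comparison below describes 2 libraries. Libraries estimated in a second table give the only error at hand: over members at 1 FPKM or more the 2 estimates differed with a log2 SD of 0.0612 in wild type E8, 0.119 in Tc/Tc E8 and 0.135 in wild type E10. Grb10 moved most, by -0.42 in Tc/Tc E8 and 0.53 in wild type E10. This spread does not include differences between embryos.

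Of the 37 members with a row, 33 were estimated in the genotype tables, 17 of them maternally and 16 paternally expressed. Igf2r, its antisense RNA Airn, and Gnas were listed at 0 in every column used, which can be a failed estimate and is not read as absence. Plagl1 had values only in the Tc/Tc stage table. Rian, Mirg, Kcnq1ot1 and Peg10 had no row under these symbols and were not analysed here. Among the 33 estimated members, 26 to 28 reached 1 FPKM in a library, 19 to 21 reached 10 and 7 to 9 reached 100. The median level was between 12.8 and 17.2 FPKM in the 4 libraries.

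H19 stood above all other members in each library, at 3056 FPKM in wild type E8, 4984 in Tc/Tc E8, 2050 in wild type E10 and 3238 in Tc/Tc E10. It was followed in wild type E8 by Grb10 (376 FPKM), Igf2 (346), Mest (226), Nap1l4 (158), Peg3 (152) and Meg3 (144). At the other end, the potassium channel gene Kcnq1, the transporter Slc22a3, the calcitonin receptor Calcr and the ubiquitin protease Usp29 stayed under 1 FPKM in all 4 libraries and entered no ratio. Maternally expressed members together made up 0.634% of total FPKM in wild type E8, 0.803% in Tc/Tc E8, 0.479% in wild type E10 and 0.704% in Tc/Tc E10. Without H19 these shares were 0.148%, 0.127%, 0.136% and 0.174%, and those of the paternally expressed members were 0.169%, 0.129%, 0.197% and 0.233%. H19 alone thus held most of the maternal sum in each library.

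**Figure D1:**
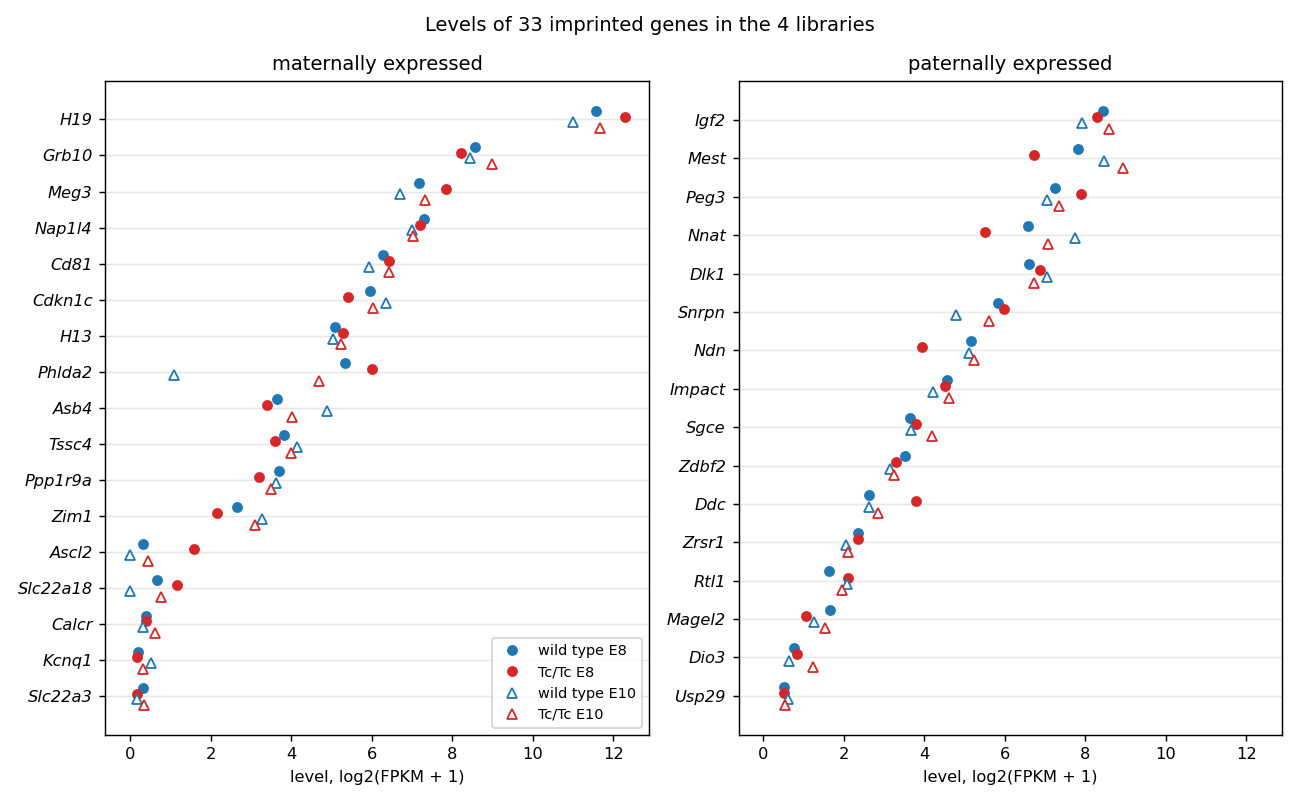
Level, as log2(FPKM + 1), of the 33 imprinted genes with an estimate, in maternally (left) and paternally (right) expressed genes ordered by mean level. Blue is wild type and red Tc/Tc, filled circles are E8 and open triangles E10, each symbol 1 library; Phlda2 stands far apart in wild type E10, at 1.13 FPKM, and Mest, Nnat and Ndn are lowest in Tc/Tc E8.

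The E8 genotype comparison asked which imprinted transcripts differ when T is active in the streak. Mest, Ndn and Nnat, all paternally expressed, were lower in Tc/Tc, each by a bit more than 1 on the log2 scale, and Ascl2 and Ddc were higher. Values written as 1 level against another are Tc/Tc against wild type. Ratios are log2 of (FPKM + 1) over (FPKM + 1), Tc/Tc over wild type, for genes that reached 1 FPKM in either of the libraries compared, and a gene is called higher or lower at a ratio of 1 or more, a fold of 2. Of 28 members measured, 2 were higher and 3 lower, 17.9% in all, against 7.22% of 13547 genes called in either direction, 4.21% higher and 3% lower. The split over all genes, 571 higher and 407 lower, was 385 and 572 with equal totals and 358 and 419 with second estimates. Of the 14 maternally expressed members 1 was higher and 0 lower, and of the 14 paternally expressed members 1 was higher and 3 lower. The class medians were 0.04 and -0.03, beside 0.06 over all genes, and both were negative with FPKM rescaled to equal totals (-0.19 and -0.23, with -0.15 over all genes). Both medians lay within 0.1 of that over all genes under either scaling.

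Mest, which encodes a protein of the hydrolase fold family expressed in mesoderm, was at 104 FPKM in the Tc/Tc and 226 in the wild-type library of E8, and at 487 and 351 in those of E10. Its ratio was -1.11 at E8 and 0.47 at E10, so the library labelled Tc/Tc was the lowest of the 4 at E8 and the highest at E10. The second estimates of the same libraries, 81.7 FPKM in Tc/Tc E8 and 427 in wild type E10, gave -1.45 and 0.19. Copg2, a coatomer subunit gene that overlaps Mest on the other strand in GENCODE M21, was at 42.0 against 95.5 FPKM at E8 (ratio -1.16) and 134 against 121 at E10 (0.14). The library kit marks strand, but whether counting used it is not stated, so reads of the 2 genes may not be separated.

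Ndn, a MAGE family gene of the Snrpn cluster known for its role in neurons, was at 14.2 FPKM in Tc/Tc E8 and between 33.7 and 36.5 in the other libraries. Its E8 ratio was -1.23, and at E10 it was 0.11. Magel2, the neighbouring MAGE gene, stood at 1.09 against 2.13 FPKM at E8, a ratio of -0.58, and at 1.90 against 1.41 at E10. Snrpn, a splicing protein gene of the same cluster, was nearly equal in both genotypes at E8, at 62.0 against 56.0 FPKM. At E10 it was at 47.6 against 26.5, a ratio of 0.82. Peg12, an imprinted gene of this cluster that is no member, was at 1.65 against 6.10 FPKM at E8 (ratio -1.42) and 9.61 against 14.7 at E10 (-0.56). Ube3a, further along the same region, was at 33.4 against 35.1 FPKM at E8 and 30.2 against 23.4 at E10. Ndn and Peg12 were thus called lower at E8, and Magel2, Snrpn and Ube3a were not.

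Nnat, which encodes a small membrane protein of developing brain, was called lower in Tc/Tc at E8 and stayed within the threshold at E10. It stood at 44.8 FPKM against 94.4 at E8 (ratio -1.06) and at 134 against 215 at E10 (ratio -0.68). With second estimates these ratios were -1.36 and -0.88. Blcap, in whose intron Nnat lies in opposite orientation, was at 6.62 against 10.8 FPKM at E8 and 16.4 against 13.7 at E10.

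Ascl2, a bHLH factor that trophoblast needs, was at 2.02 FPKM in Tc/Tc E8, 0.252 in wild type E8 and 0.369 in Tc/Tc E10, and it was listed at 0 in wild type E10. Its E8 ratio of 1.27 rests on a low level, and with a pseudocount of 5 it was 0.42. Ddc, an amino acid decarboxylase gene whose imprinting is known from the heart, was at 12.8 FPKM in Tc/Tc E8 and between 5.15 and 6.25 in the other libraries. Its E8 ratio was 1.15, but 0.88 with second estimates, 0.95 with equal totals and 0.80 with a pseudocount of 5, all below the threshold. The fixed trophoblast markers, of which Ascl2 is 1, were higher in Tc/Tc at E8 in 3 of 4 measured genes. These 3, Elf5, Esx1 and Ascl2 itself, were under 1 FPKM in wild type E8 and were measured only through Tc/Tc E8. The count is thus largely set by the minimum of 1 FPKM. Plac1, above 1 FPKM in both libraries, was not called (ratio 0.62). All 8 summed to 20.1 FPKM against 4.65, and Tpbpa, Prl3d1 and Prl2c2 were listed at 0 in all 4 libraries. Heart markers were lower in 6 of 6 at E8, with a sum of 16.9 FPKM against 338. The part of either tissue in the values of Ascl2 and Ddc was not tested, and in whole embryos fewer cells of a type and less RNA per cell cannot be told apart.

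The E10 genotype comparison asked which imprinted transcripts differ between the genotypes at the later stage. Phlda2 was the 1 member called, and it was far higher in Tc/Tc. Of 27 members measured 1 was higher and 0 lower, 3.70%, against 8.03% of 14265 genes, 4.94% higher and 3.08% lower. The split over all genes was 705 higher and 440 lower, 496 and 463 with second estimates, and 487 and 568 with ratios centred on the median of all genes. Of 12 maternally expressed members 7 had a ratio above 0, with a median of 0.12, and of 15 paternally expressed members 12 did, with a median of 0.27. Of the 14265 genes, 9542 lay above 0. Over all genes the median was 0.16, so ratios of this comparison read against that shift; centred on it, the class medians were -0.041 and 0.11. Asb4 then passed the threshold downwards.

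Phlda2, whose PH domain protein limits growth of the placenta, stood at 39.3 FPKM in wild type E8, 63.8 in Tc/Tc E8, 1.13 in wild type E10 and 25.0 in Tc/Tc E10. Its ratio was 0.69 at E8 and 3.61 at E10, rank 45 from the top among the 14265 genes of that comparison. Second estimates give no further check here. The deposited FPKM of Phlda2 were identical in both tables, and Tc/Tc E10 has no second estimate. With pseudocounts of 0.1 and 5 the E10 ratio was 4.35 and 2.29. The low library was wild type E10, and the other 3 lay within a factor of 2.55 of each other. Visceral endoderm and yolk sac markers, such as Apoa1, Ttr and Cubn, were higher in Tc/Tc in 12 of 13 measured at E8 and 14 of 14 at E10. Their median ratio was 1.67 at E8 and 4.37 at E10. Their sum was 1041 FPKM in wild type E8, 3287 in Tc/Tc E8, 21.6 in wild type E10 and 723 in Tc/Tc E10. In wild type E10, 4 of the 14 (Apoa4, Apoc2, Amn and Spink3) were listed at 0. Only 5 of the 14 reached 1 FPKM there, so most were measured at E10 only through Tc/Tc E10. How much of the Phlda2 difference came with this tissue was not tested.

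Of the neighbours of Phlda2 in the Kcnq1ot1 cluster, Slc22a18 and Ascl2 were also listed at 0 in wild type E10 and under 1 FPKM in Tc/Tc E10, so no E10 ratio was formed for them. Slc22a18, a transporter gene adjacent to Phlda2, was at 0.599 FPKM in wild type E8, 1.24 in Tc/Tc E8 and 0.696 in Tc/Tc E10; its E8 ratio was 0.49. Cdkn1c, an inhibitor of cyclin-dependent kinases, stayed within the threshold at both stages, at 41.3 against 61.7 FPKM at E8 (ratio -0.57) and 64.2 against 80.7 at E10 (-0.33). The imprinting of Nap1l4, Tssc4 and Cd81 is largely known from placenta, and they had ratios between -0.21 and 0.17 at E8 and between -0.15 and 0.50 at E10. Over the 4 libraries Nap1l4, a histone chaperone gene, ranged from 126 to 158 FPKM, Tssc4 from 11.1 to 16.7, the tetraspanin gene Cd81 from 60.0 to 86.0 and Kcnq1 from 0.118 to 0.434. Cdkn1c over Phlda2 was 71.4 in wild type E10 and 0.648 to 2.56 in the other 3 libraries, as a ratio of FPKM.

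**Figure D2:**
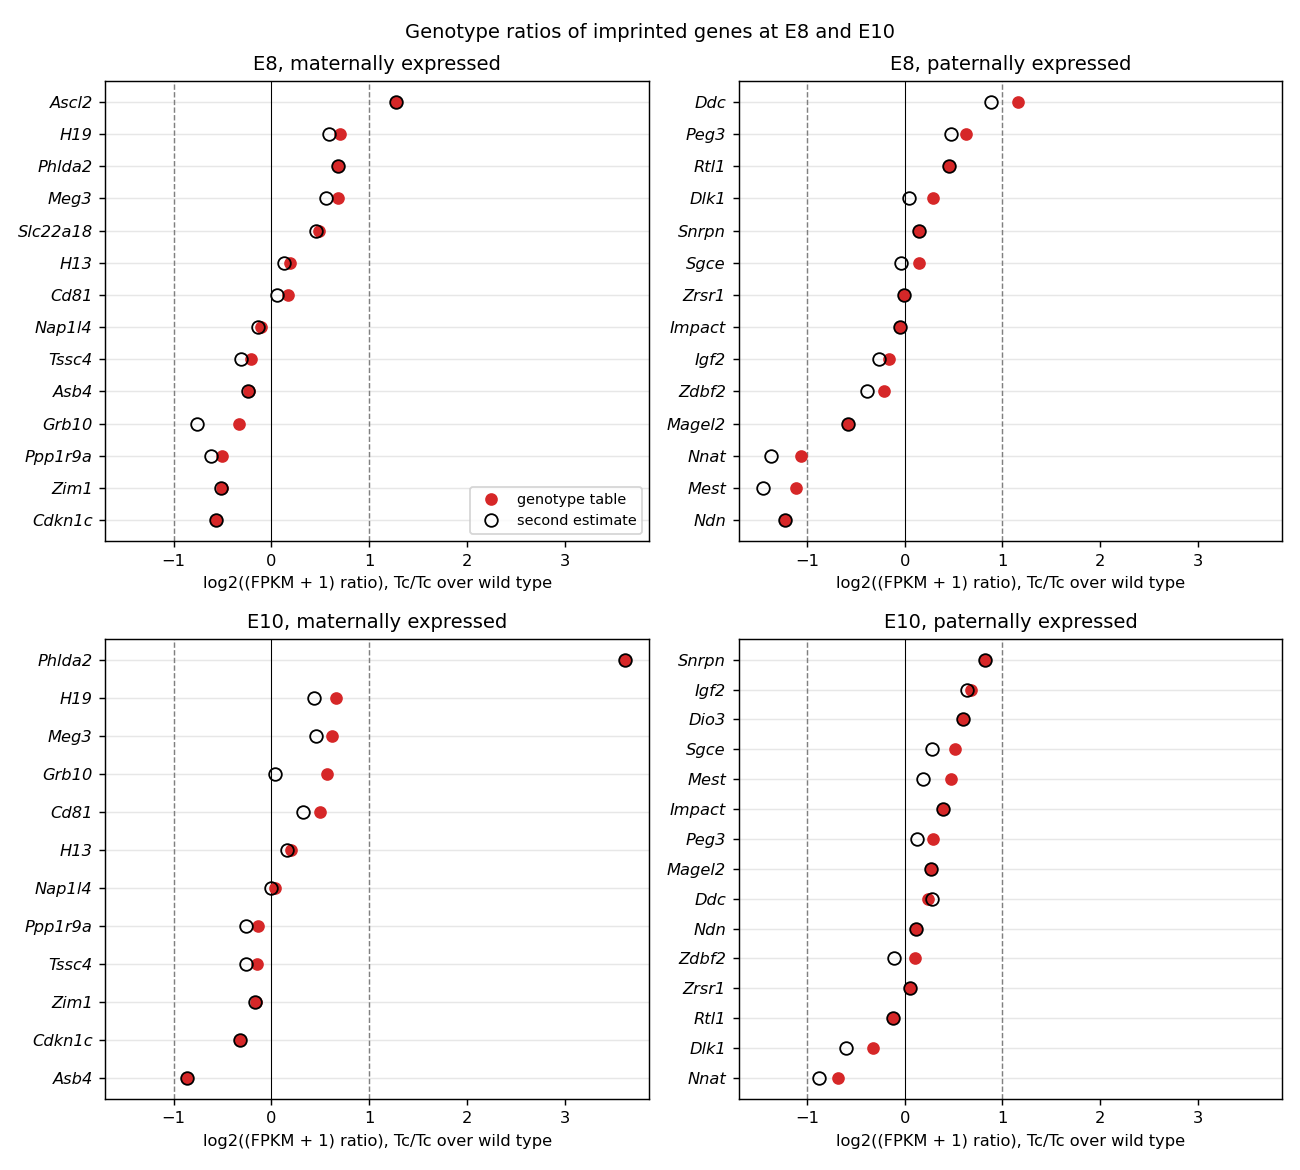
Log2 ratio of (FPKM + 1), Tc/Tc over wild type, for each member that reached 1 FPKM in either library, at E8 (top) and E10 (bottom). Red points are from the genotype tables, open circles use second estimates of the same libraries where they exist, and dashed lines mark a ratio of 1 in either direction; Phlda2 at E10 lies at 3.61 and Mest, Ndn and Nnat lie below -1 at E8.

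In the H19/Igf2 cluster, where both genes share enhancers and are read from opposite alleles, the noncoding RNA and the growth factor differed in their genotype ratios at E8. H19 had positive ratios within the threshold at both stages (0.71 and 0.66, or 0.59 and 0.43 with second estimates). Igf2 stood at 346 FPKM in wild type E8, 309 in Tc/Tc E8, 241 in wild type E10 and 387 in Tc/Tc E10, with ratios of -0.16 and 0.68. The ratio of FPKM of H19 to Igf2, which library scaling does not touch, was 8.83 in wild type E8, 16.1 in Tc/Tc E8, 8.51 in wild type E10 and 8.36 in Tc/Tc E10. Tc/Tc E8 was thus the 1 library that stood apart, and its second estimate was 15.9. The second estimate of wild type E10 was 9.66.

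In the Dlk1/Dio3 cluster the maternally expressed noncoding RNA Meg3 stood at 144 FPKM in wild type E8, 230 in Tc/Tc E8, 104 in wild type E10 and 160 in Tc/Tc E10, ratios of 0.68 and 0.62. Paternally expressed Dlk1, a membrane protein gene related to Notch ligands, was at 95.5, 117, 130 and 104 FPKM in the same order, ratios of 0.29 and -0.32. With second estimates the Dlk1 ratios were 0.04 and -0.60, the latter with 158 FPKM in wild type E10. Meg3 over Dlk1 was 1.504 in wild type E8, 1.96 in Tc/Tc E8, 0.798 in wild type E10 and 1.54 in Tc/Tc E10; it was higher in Tc/Tc at both stages. Rtl1, a retrotransposon-derived gene, had ratios of 0.46 and -0.12. Dio3, the deiodinase that inactivates thyroid hormone, was at 1.36 against 0.559 FPKM at E10, a ratio of 0.60.

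In the Peg10/Sgce cluster, Asb4, a ubiquitin ligase adaptor gene, was at 11.5 FPKM in wild type E8, 9.63 in Tc/Tc E8, 28.6 in wild type E10 and 15.2 in Tc/Tc E10. Its ratio was -0.23 at E8 and -0.86 at E10, the lowest E10 ratio among the members. Sgce, the epsilon-sarcoglycan gene, ranged from 11.5 to 17.2 FPKM, Ppp1r9a, which encodes neurabin, from 8.22 to 12.1, and Calcr from 0.257 to 0.540. Asb4 over Sgce was 2.43 in wild type E10 and 0.750 to 0.997 in the other 3 libraries. Wild type E10 was again the library that stood apart.

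In the Grb10/Ddc cluster, Grb10, an adaptor that restrains insulin and IGF signalling, stood at 376 FPKM in wild type E8, 298 in Tc/Tc E8, 346 in wild type E10 and 512 in Tc/Tc E10. The ratios were -0.34 and 0.57, but -0.76 and 0.03 with second estimates (222 FPKM in Tc/Tc E8 and 501 in wild type E10), so neither its size at E8 nor its difference at E10 was steady. In the Peg3 cluster, the zinc finger genes Peg3 and Zim1 lay on opposite sides of 0 at both stages. Peg3 was at 152 FPKM in wild type E8, 235 in Tc/Tc E8, 132 in wild type E10 and 162 in Tc/Tc E10 (ratios 0.63 and 0.29), and Zim1 was at 5.33, 3.45, 8.61 and 7.62 (ratios -0.51 and -0.16). Zim1 over Peg3 was 0.0352 in wild type E8, 0.0147 in Tc/Tc E8, 0.0655 in wild type E10 and 0.0471 in Tc/Tc E10. Grb10 over Ddc was 72.5, 23.3, 67.1 and 81.9 in the same order, with second estimates of 56.5, 16.9 and 101 in the first 3. In Tc/Tc E8 these ratios were the lowest of the 4 libraries, whereas H19 over Igf2 and Meg3 over Dlk1 were the highest there. The members that lie apart from these clusters, H13, Impact, Zrsr1 and Zdbf2, had ratios between -0.22 and 0.40 at both stages.

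**Figure D3:**
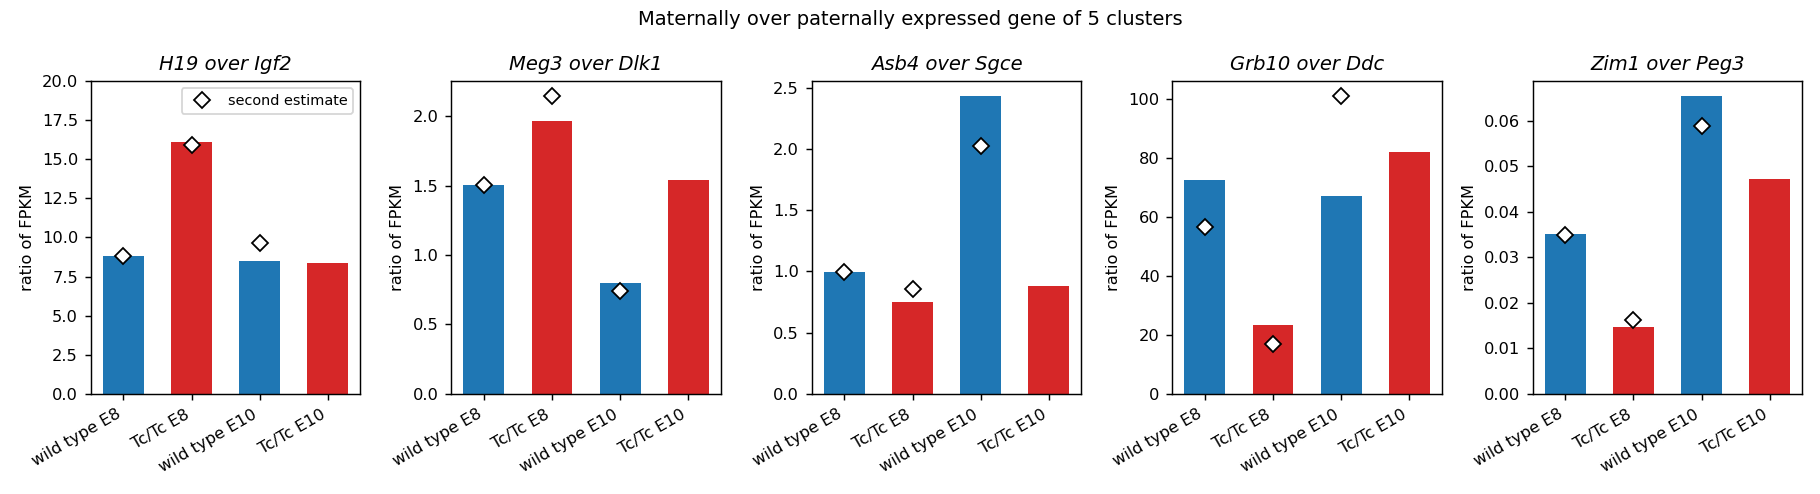
Ratio of FPKM of a maternally to a paternally expressed gene of the same cluster in each library, for H19 over Igf2, Meg3 over Dlk1, Asb4 over Sgce, Grb10 over Ddc and Zim1 over Peg3. Bars are from the genotype tables, blue for wild type and red for Tc/Tc, and diamonds are second estimates of the same library; in Tc/Tc E8, H19 over Igf2 stands at 16.1, above the others, and Grb10 over Ddc at 23.3, below them.

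The stage comparisons asked how these transcripts change from E8 to E10 in each genotype. In wild type, Nnat and Asb4 were higher at E10 and Phlda2 and Snrpn lower. In Tc/Tc, Mest, Nnat, Ndn and Grb10 were higher and Phlda2 and Ascl2 lower. Of 26 members measured in wild type 4 were called, 15.4%, against 12.5% of 14239 genes (7.36% higher and 5.15% lower). Of 29 in Tc/Tc 6 were called, 20.7%, against 11.5% of 13803 genes (7.72% higher and 3.78% lower). Second estimates gave splits over all genes of 739 higher and 796 lower in wild type, from 1048 and 734, and of 855 and 611 in Tc/Tc, from 1066 and 522. The median of all genes in the Tc/Tc stages was 0.13, and ratios taken relative to it gave 837 and 686. The wild-type ratios come from 1 table, and the Tc/Tc ratios join Tc/Tc E10 of the genotype table with Tc/Tc E8 of the stage table.

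Mest had a stage ratio of 0.93 in wild type and 2.56 in Tc/Tc, where it went from 81.7 to 487 FPKM. Nnat had 1.38 and 1.86, and Ndn -0.04 and 1.30. For all 3, the larger ratio in Tc/Tc goes with the low level of the Tc/Tc E8 library, which also enters the E8 genotype ratio, so these are not separate observations. Phlda2 had -4.24 in wild type, from 39.3 to 1.13 FPKM, and -1.32 in Tc/Tc. Snrpn had -1.05 and -0.37, and Asb4 1.24 and 0.61. Grb10 reached 1.20 in Tc/Tc, but 0.78 with the E8 value of the genotype table. Within the threshold, Igf2 had -0.48 in wild type and 0.42 in Tc/Tc, and H19 had -0.35 and -0.51.

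Plagl1, an imprinted zinc finger factor that in mouse controls other genes of this list, was estimated in 1 table only. It stood at 8.20 FPKM in Tc/Tc E8, and the authors' deposited table gives a natural log fold change of 2.02 for its Tc/Tc stages, which is a 7.502-fold difference. That column pair was checked over 33 members: the deposited value lay within 0.05 of the ratio of Tc/Tc E10 to Tc/Tc E8 in 32 of them, and within 0.05 of the ratio of wild type E10 to Tc/Tc E8 in 1.

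**Figure D4:**
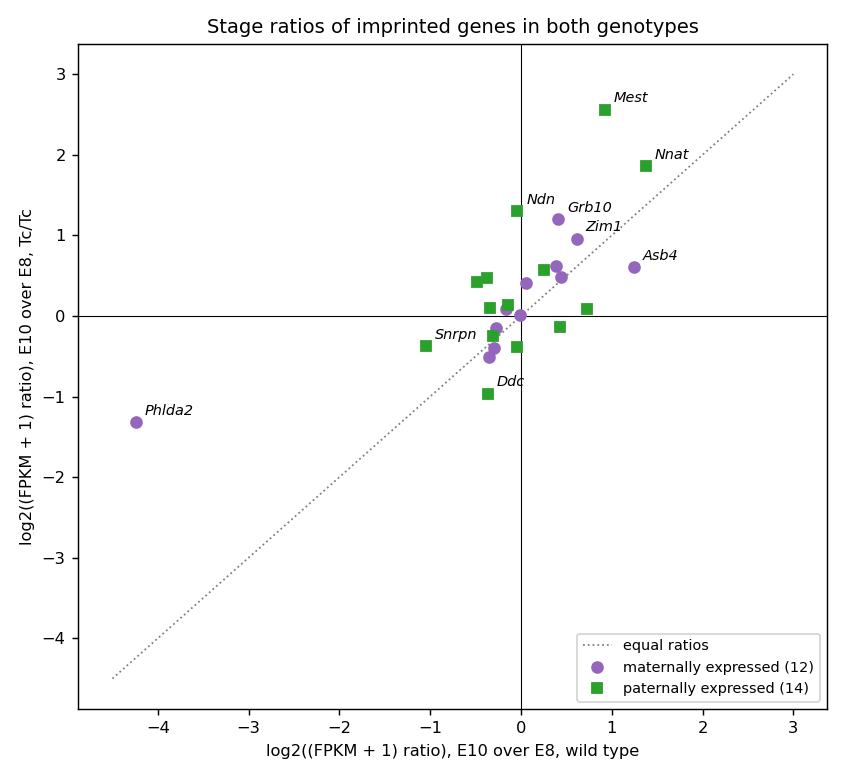
Log2 ratio of (FPKM + 1), E10 over E8, in wild type (x axis) and in Tc/Tc (y axis) for 12 maternally (circles) and 14 paternally (squares) expressed members measured in both, with the line of equal ratios dotted. Mest (0.93 and 2.56), Ndn (-0.04 and 1.30) and Phlda2 (-4.24 and -1.32) lie farthest above the line.

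Among the 17 measured genes of the list of imprinting regulators, 0 passed the threshold between genotypes. With so few genes measured, this count does not set them apart from all genes. Of 24 regulators on the list, among them the maintenance methyltransferase Dnmt1, its partner Uhrf1, and Zfp57 and Trim28, which protect imprints, 17 were measured and 0 were called in either genotype comparison, beside background shares of 7.22% and 8.03%. Their median ratio was -0.03 at E8 and 0.26 at E10. Single regulators lay farther out, such as the Polycomb gene Suz12 at 0.67 at E8, and at E10 Ctcfl at 0.76, Trim28 at 0.66, Uhrf1 at 0.59, Zfp57 at -0.53 and Tet2 at -0.63. Zfp57 was at 9.61 FPKM in wild type E8, 9.40 in Tc/Tc E8, 18.6 in wild type E10 and 12.6 in Tc/Tc E10. Dnmt3b, Dnmt3l, Ctcf, Nlrp2 and Smchd1 were listed at 0 in every genotype column and were not measured.

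Of 38 further imprinted genes, 21 were measured at E8, of which 0 were higher and 2 lower, Peg12 and Copg2. Reads of Copg2 may not be separated from those of Mest, as said above. At E10, 22 were measured and 0 called. Over all genes 4.21% were higher and 3% lower at E8, and 8.03% were called in either direction at E10. Among 17 other genes of the IGF pathway, 12 were measured at each stage, with 0 higher and 2 lower at E8 and 0 called at E10. The 2 were the IGF binding protein genes Igfbp5, at 16.9 against 51.2 FPKM (ratio -1.54), and Igfbp3, at 1.59 against 5.67 (ratio -1.37). At E10 they stood at 98.8 against 90.0 and at 12.2 against 9.34. Between stages, 2 of 23 further imprinted genes were higher at E10 in wild type, Dhcr7 (1.46) and Peg12 (1.14), and 4 of 22 in Tc/Tc, led by Peg12 (2.003) and Copg2 (1.63). Of the IGF pathway genes 0 of 12 were called between stages in wild type and 3 of 12 were higher in Tc/Tc, led by Igfbp5 (2.52) and Igfbp3 (2.35). Over all genes, 7.36% were higher at E10 in wild type and 7.72% in Tc/Tc. Mesenchyme markers were lower in Tc/Tc at E8 in 5 of 8 and at E10 in 3 of 8, with sums of 53.8 against 82.0 and 143 against 283 FPKM. Neuronal markers were lower in 0 of 5 at E8 and 7 of 8 at E10, with sums of 29.7 against 30.7 and 24.0 against 87.6 FPKM. Skeletal muscle and somite markers were lower in 3 of 3 measured at E8 and 3 of 6 at E10, with sums of 10.4 against 33.9 and 31.6 against 46.1 FPKM. Heart markers, lower in 6 of 6 at E8, were higher in 3 of 6 at E10, with a sum of 694 against 364 FPKM. Decidua markers were higher in 1 of 3 at E8 and 1 of 2 at E10, with sums of 24.4 against 16.5 and 61.2 against 20.1 FPKM. The 1 called at E8 was Prl8a2, at 3.21 against 0 FPKM. At E10 it was Cryab, at 45.9 against 8.54 FPKM, with Wfdc2 at 15.2 against 11.6. Prl8a2 and Prl3c1 were listed at 0 in wild type E10 and in Tc/Tc E10. The part of these tissues in the values of Mest, Ndn, Nnat and the binding proteins was not tested.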

How the data were processed

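Whole-embryo RNA of 4 groups, 1 library each, was analysed from 4 deposited pairwise tables. The authors' pipeline included Bowtie2 and Cuffdiff on the build mm9, per the submitters' processing notes. The sources used here give no versions, annotation, embryo numbers or strand setting. Per the file headers, the deposited values are FPKM, a natural log fold change and a p-value per gene. The authors' p-values compare single libraries and were not used. Depth is unknown, so no counting interval is given.

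Each genotype comparison stayed within its own table, as did the wild-type stages, while the Tc/Tc stages joined a pair of tables. The Tc/Tc stage table has 1 column headed as wild type E10, against its name, which was not used. A pair of zeros was treated as not estimated. Ratios used a pseudocount of 1 FPKM, a minimum of 1 FPKM in 1 or both libraries and a threshold of 1 on the log2 scale; no difference was tested. The ratio code was tested on simulated data. All members are accounted for, those called in any comparison, or in a cluster with such a gene, with their levels; of the further imprinted genes, regulators and IGF pathway genes, those called between genotypes are named, with up to 2 in each direction between stages. Marker lists are given whole, by counts and sums. Some genes (Zfp57, Trim28, Suz12, Ctcfl, Tet2, Uhrf1, Ube3a, Blcap, Apoa1, Ttr, Cubn, Elf5, Esx1, Plac1, Cryab, Wfdc2, Prl8a2 and Prl3c1) were named after their values were seen. Members and lists were chosen with earlier results of these data known. Python 3.11.15, pandas 2.3.3, numpy 2.4.6 and matplotlib 3.10.9 were used.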

Additional observations from a re-analysis of the deposited data

Results flagged for a closer look

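Mest was on opposite sides of wild type at the 2 stages: its log2 ratio of Tc/Tc over wild type was 1.59 higher at E10 than at E8 (0.47 and -1.11). With second estimates the Mest ratios were 0.19 at E10 and -1.45 at E8, beside medians over all genes of 0.087 and -0.011. The E10 side was thus small. With 1 library per group the difference between the stages was not tested.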

How the results depend on the processing

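No paired analysis was possible because each group holds 1 library. Of 110 values for single called members under the alternatives, 102 stayed past the threshold and 0 changed sign. A change of the minimum FPKM alters only which genes enter. Its values, included in the 110, repeat the reported ratios and could not move. The same holds for the second estimates of Phlda2 and Ndn, whose deposited FPKM were identical in both tables. Ascl2 did not reach the minimum of 5 FPKM and has no value there. Of 88 values for counts and class medians, 73 stayed close to the reported ones, that is, counts within 1.5 times and medians within the re-estimation SD over all genes (0.155). For members higher in Tc/Tc at E8, reported as 2, the count was 0 with a pseudocount of 5 and 1 with a minimum of 5 FPKM, with equal totals and with second estimates. At E10, 2 were higher with a pseudocount of 0.1 and 1 was lower with ratios centred on the median of all genes. Members lower at E10 than at E8 numbered 1 in wild type and 1 in Tc/Tc with a pseudocount of 5, and 1 in Tc/Tc with a minimum of 5 FPKM. The maternal median at E8, reported as 0.035, changed sign, to -0.16 with a minimum of 5 FPKM and -0.19 with equal totals. It was also below 0, within the re-estimation SD of the reported value, under other settings. These were -0.035 with a minimum above 0 FPKM, -0.020 when centred and -0.037 with second estimates. The paternal median at E8 moved to -0.23 with equal totals. At E10 the maternal median was -0.041 when centred and 0.38 without the members imprinted in few tissues, and the paternal one was 0.11 when centred. The cause was not tested, beyond the shift that rescaling and centring impose by construction. Over all genes, the reported 571 higher and 407 lower at E8 were 858 and 702 with a pseudocount of 0.1, 205 and 102 with 5, 405 and 204 with a minimum of 5 FPKM and 358 and 419 with second estimates. The reported 705 and 440 at E10 were 1038 and 720, 272 and 147, and 499 and 242 under the first 3 of these. In the same order, 1048 and 734 between the wild-type stages were 1586 and 1048, 337 and 287, and 579 and 486, and 1066 and 522 between the Tc/Tc stages were 1694 and 806, 326 and 215, and 644 and 384, with 1393 and 428 at equal totals.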
